A study of Homo sapiens with 12 samples.

Results

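The 37 genes of the human mitochondrial chromosome were followed across 12 RNA libraries of NS-SV-AC, an SV40-transformed cell line derived from human salivary gland acini. They were chosen by position and name, as every gene on the mitochondrial chromosome with a symbol that starts with MT-. They comprised 13 mRNAs, 2 rRNAs and 22 tRNAs out of 60609 annotated genes, and all 37 were among the 17185 genes that passed the filter on low values. The study crossed 3 compounds with a transfection, with 2 replicates in each of 6 groups, in a series on mitochondrial double-stranded RNA and Sjögren's syndrome. Cells received DMSO, the solvent, or 2-CM (2'-C-methyladenosine) or RES (resveratrol) at a dose of 20, in a unit read here as micromolar. Every compound, or the same volume of DMSO, was given 24 h before the transfection and once more together with it. For 14 h the transfected material was poly I:C, an analogue of double-stranded RNA made in the laboratory, or the control that the labels call depc. Growth lasted 48 h. Polyadenylated RNA was made into stranded paired-end libraries.

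All groups share a single cell line, and nothing in the labels says that replicates came from separate cultures, so p-values measure the spread between these samples, which may be technical. In such bulk RNA, fewer cells and less RNA per cell cannot be told apart. Reads estimated from coverage numbered 31.2 to 49.4 M per library, and the 37 genes took 12.2% to 21.0% of aligned bases. Of 12 markers of salivary acinar cells, 7 (STATH, PIP, AQP5, CST1, MUC7, HTN3 and PRB1) were listed at 0 in every library and 1 (BHLHA15) reached 1 TPM in at least 2 libraries. Of 7 epithelial markers, the keratins KRT8 and KRT18 read 629.8 to 1958 and 466 to 1571 TPM, KRT7, EPCAM, CDH1 and KRT19 were at or below 2.16 TPM in every library, and KRT5 was listed at 0. Of 4 mesenchymal markers, VIM read 386 to 819 TPM, COL1A1 15.9 to 100.3 and PDGFRB 4.20 to 11.01, and COL1A2 was listed at 0 in 11 of 12 libraries. The transfection check held, with 8, 9 and 8 of 9 interferon-response genes called higher with poly I:C under DMSO, 2-CM and RES in the limma fit. Libraries also differed in the balance of genes by GC content. The median deviation of the GC-poorest 10% of genes minus that of the GC-richest 10% ran on the log2 scale from -1.52 in 2-CM depc replicate 2 to 1.45 in 2-CM poly I:C replicate 1, and the 2 RES depc libraries differed from each other, at 0.45 and -1.26.

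Mitochondrial DNA is a small circle that is transcribed on both strands from promoters beside the noncoding control region by a dedicated RNA polymerase, POLRMT. The long transcripts are cut at the tRNAs that lie between the other genes, which releases the rRNAs of the mitochondrial ribosome and the mRNAs for core subunits of respiratory complexes I, III and IV and of ATP synthase (complex V). The light-strand transcript carries few genes, MT-ND6 and 8 tRNAs, and the antisense RNA made from both strands can pair into double-stranded RNA that is removed by the PNPT1 and SUPV3L1 degradosome. MT-TF is the first gene after the heavy-strand promoters and MT-TP the first gene reached from the light-strand promoter. 2'-C-methyladenosine is known as a chain terminator of the mitochondrial polymerase, and resveratrol is a plant polyphenol. MT-ND6 is known to lack a poly(A) tail, unlike the other mitochondrial mRNAs.

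A few short genes named in the results below are shown here with the hg38 sequence, 5′ to 3′ on the strand of the RNA. The first 4 are tRNAs, and capitals mark the anticodon. MT-TF (tRNA for phenylalanine, chrM:577-647) and MT-TP (proline, chrM:15956-16023) were the tRNAs called with the largest TPM differences under 2-CM and RES. MT-TA (alanine, chrM:5587-5655) and MT-TN (asparagine, chrM:5657-5729) moved with poly I:C under 2-CM. The last sequence is the 46 bases that MT-ATP8 and MT-ATP6 share (chrM:8527-8572), with the start codon of MT-ATP6 and the stop codon of MT-ATP8 in capitals, since reads there count for either gene.
MT-TF: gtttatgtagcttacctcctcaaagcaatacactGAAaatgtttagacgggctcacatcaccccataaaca
MT-TP: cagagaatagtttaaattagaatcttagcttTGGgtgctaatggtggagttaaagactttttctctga
MT-TA: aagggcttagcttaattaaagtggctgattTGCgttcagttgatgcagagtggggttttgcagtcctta
MT-TN: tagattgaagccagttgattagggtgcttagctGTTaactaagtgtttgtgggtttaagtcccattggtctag
overlap of MT-ATP8 and MT-ATP6: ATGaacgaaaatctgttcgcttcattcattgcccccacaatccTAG

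Levels are given as TPM, a share of transcripts that is divided by gene length, so genes can be compared within a library. In the DMSO depc libraries MT-CO2, a subunit of cytochrome c oxidase (complex IV), had the highest mean, 67111 ± 1659 TPM (SD, n = 2), followed by MT-CO3 of the same enzyme at 37216 ± 2082, MT-ATP6 of ATP synthase at 28379 ± 1236 and MT-CO1, the catalytic subunit of complex IV, at 25105 ± 1569. MT-ND4 of complex I (19014 ± 89.2) and MT-ATP8 of complex V (18688 ± 124) came next. MT-ND4L of complex I stood at 13008 ± 52.7, MT-CYB, the only mitochondrially encoded subunit of complex III, at 9743 ± 11.6, MT-ND2 at 8752 ± 8.62, MT-ND1 at 8649 ± 300, MT-ND3 at 6449 ± 319.6, MT-ND5 at 4679 ± 304 and MT-ND6 at 4659.8 ± 581. The neighbouring pairs MT-ND2 and MT-ND1, and MT-ND5 and MT-ND6, differed by less than their spread. The large rRNA MT-RNR2 had 16389 ± 631 TPM and the small rRNA MT-RNR1 2820.2 ± 80.6 in this polyadenylated RNA.

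**Figure D1:**
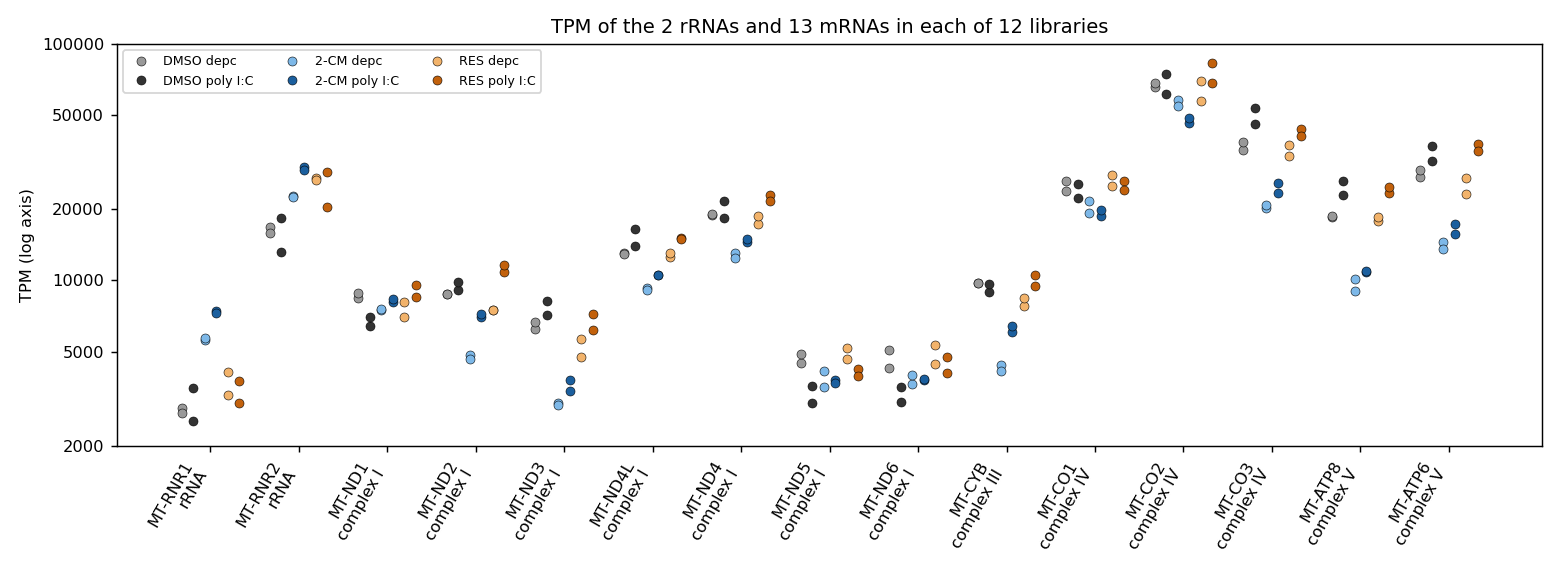
TPM on a log axis of the 2 rRNAs and 13 mRNAs, ordered by respiratory complex, in the 12 libraries (points, 2 per group, colour by group). The blue 2-CM points lie below the grey DMSO points for MT-CYB, MT-ATP8, MT-ATP6, MT-CO3 and MT-ND3 and above them for MT-RNR1.

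The 22 tRNAs spanned a wide range in the same libraries, from 51.6 ± 0.128 TPM for MT-TK (lysine) to 4952 ± 709 for MT-TC (cysteine). The highest 5, MT-TC, MT-TY (tyrosine), MT-TS1 (serine), MT-TN and MT-TA, are all light-strand genes, at 4674 ± 490 for MT-TY, 4160 ± 405 for MT-TS1, 4019 ± 767 for MT-TN and 2596 ± 532 for MT-TA. Summed over genes, the 8 light-strand tRNAs held 2.30% of all TPM and the 14 heavy-strand tRNAs 0.55%. The tRNAs are 59 to 75 bases long, shorter than a read. The values used are coverage per gene model and not single reads, so mature and unprocessed RNA cannot be told apart. No strand option is named in the file headers, so light-strand genes and RNA antisense to them cannot be told apart either. The same holds for MT-ND6. Neighbours that share bases, MT-TI and MT-TQ (3 bases), MT-ND4L and MT-ND4 (7 bases), MT-TC and MT-TY (1 base), MT-ATP6 and MT-CO3 (1 base) and the ATP synthase pair, are uncertain where reads could be split.

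Under 2-CM, mRNAs of complexes I, III, IV and V were lower than under DMSO and MT-TF and MT-RNR1, from the start of the heavy-strand transcript, were higher. Averaged over both transfections, limma on log2(TPM + 1) called 14 of 17185 genes (0.0815%), and 8 of these 14 were mitochondrially encoded: 6 mRNAs fell, where 0.0524% of all genes were called lower, and MT-TF and MT-RNR1 rose, where 0.0291% were called higher. The median of the 13 mRNAs was -0.51 on the log2 scale, that of the 22 tRNAs -0.07 and that of all genes tested 0.25. Of the mRNAs, 10 of 13 did not overlap between 2-CM and DMSO in either transfection, all lower, and 6 tRNAs were likewise lower, which makes 16 members where 0.884% of all genes were lower without overlap. The 4 members higher without overlap were MT-TF, MT-RNR1, MT-RNR2 and MT-TW (tryptophan), against 10.9% of all genes. The count of 4 in 37 is near that share and is no result about the members.

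MT-ATP8, a small subunit of ATP synthase, read 18600 and 18775 TPM with DMSO and depc, 23038 and 26395 with DMSO and poly I:C, 10143 and 9066 with 2-CM and depc, and 10879 and 10942 with 2-CM and poly I:C. MT-ATP6, the subunit that forms the proton channel, read 27505 and 29252, 31950 and 36869, 14577 and 13653, and 15788 and 17377 TPM in the same order of groups. All 4 libraries with 2-CM lay below all 4 with DMSO for both genes. MT-ATP8 fell by 1.07 on the log2 scale (SE 0.077, limma adjusted p = 0.00183), or 2.099-fold. MT-ATP6 fell by 1.03 (SE 0.0868, limma adjusted p = 0.00315). The pair share 46 bases and a transcript, so they are not independent of each other.

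MT-CO3 of cytochrome c oxidase read 35744 and 38688 TPM with DMSO and depc, 46014 and 53405 with DMSO and poly I:C, 20308 and 20811 with 2-CM and depc, and 23437 and 25751 with 2-CM and poly I:C. It fell by 0.93 (SE 0.0817, limma adjusted p = 0.00322), with no overlap between the compounds. The other subunits of complex IV did not pass the test. MT-CO1 had a log2 difference of -0.30 (limma adjusted p = 0.263) and MT-CO2 of -0.38 (limma adjusted p = 0.259), although the 2-CM libraries were the lower ones in both transfections for each.

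MT-CYB of complex III read 9751 and 9735 TPM with DMSO and depc and 8973 and 9625 with DMSO and poly I:C. Under 2-CM it read 4394 and 4134 with depc and 6058 and 6416 with poly I:C. It fell by 0.88 (SE 0.0762, limma adjusted p = 0.00322). The difference was -1.19 with depc (limma adjusted p = 0.0336) and -0.58 with poly I:C, where it did not pass (limma adjusted p = 0.0905). All 2-CM libraries were below all DMSO libraries.

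Among the 7 mRNAs of complex I, the proton-pumping NADH dehydrogenase, MT-ND3 and MT-ND2 fell. MT-ND3 read 6223 and 6675 TPM with DMSO and depc, 7160.1 and 8168 with DMSO and poly I:C, 3042 and 2975 with 2-CM and depc, and 3416 and 3809.8 with 2-CM and poly I:C, a fall of 1.09 (SE 0.0981, limma adjusted p = 0.00356). MT-ND2 read 8746 and 8758, 9093 and 9806, 4817 and 4672, and 7005 and 7236 TPM in that order, a fall of 0.65 (SE 0.069, limma adjusted p = 0.0132). Neither gene overlapped between the compounds. MT-ND4L (-0.51, limma adjusted p = 0.0737) and MT-ND4 (-0.51, limma adjusted p = 0.0897) were lower in each transfection without passing. MT-ND5 (-0.051), MT-ND6 (-0.034) and MT-ND1 (0.048, below 0 under all 6 other scalings) averaged near 0 from opposite signs in TPM, at -0.29 with depc and 0.18 with poly I:C for MT-ND5, -0.28 and 0.21 for MT-ND6 and -0.20 and 0.30 for MT-ND1. None of these passed, and the values with poly I:C were below 0 under 5 of 6 other scalings. The light-strand mRNA MT-ND6 read 4249 and 5071 TPM with DMSO and depc, 3068 and 3550.2 with DMSO and poly I:C, 3665 and 3993 with 2-CM and depc, and 3811 and 3831 with 2-CM and poly I:C, so in TPM 2-CM lay below DMSO with depc and above it with poly I:C.

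MT-TF, the tRNA for phenylalanine at the head of the heavy-strand transcript, read 153 and 179 TPM with DMSO and depc and 191 and 155 with DMSO and poly I:C. Under 2-CM it read 515 and 466 with depc and 585 and 485 with poly I:C. The groups were far apart, and MT-TF rose by 1.59 (SE 0.129, limma adjusted p = 0.0027), or 3.02-fold. It is the only member called higher in each transfection on its own, by 1.56 with depc (limma adjusted p = 0.043) and 1.62 with poly I:C (limma adjusted p = 0.0243). Its RES libraries read 136 to 170 TPM, within the range of DMSO or just under it.

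MT-RNR1, the small rRNA, follows MT-TF directly (chrM:648-1601). It read 2877 and 2763 TPM with DMSO and depc, 3512 and 2545 with DMSO and poly I:C, 5624 and 5729 with 2-CM and depc, and 7418 and 7261 with 2-CM and poly I:C. MT-RNR1 rose by 1.15 (SE 0.129, limma adjusted p = 0.0168). The large rRNA MT-RNR2 (chrM:1671-3229) read 16835 and 15942, 18355 and 13221, 22778 and 22474, and 30049 and 29379 TPM in the same order. All 2-CM values of MT-RNR2 exceeded all DMSO values, but its difference of 0.70 (SE 0.131) did not pass (limma adjusted p = 0.19).

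RNAs listed as lacking a poly(A) tail, histone mRNAs among them, are given beside these values, since the libraries were made from polyadenylated RNA. Limma called 0 of the 10 tested (3 at an unadjusted p under 0.05), with a median of 0.60 with depc, beside -0.12 for all genes, and 0.44 with poly I:C, beside 0.59. Summed over 13 such genes, of which SCARNA2 was listed at 0, they read 307 to 378 TPM with DMSO and depc, 601 to 688 with 2-CM and depc, 282 to 289.9 with DMSO and poly I:C and 375 to 411 with 2-CM and poly I:C. The RNA polymerase III transcript RN7SK read 107 and 106 TPM with 2-CM and depc against 16.2 and 32.6 with DMSO and depc, and 35.6 and 18.3 with 2-CM and poly I:C against 19.0 and 16.9 with DMSO and poly I:C. RMRP, the RNA of a ribonuclease, read 52.7 and 39.4 against 6.56 and 14.3 TPM with depc, and 12.4 and 5.01 against 7.62 and 4.42 with poly I:C. RPPH1, RN7SL1 and RN7SL2 were higher with depc too. The listed histone mRNAs did not rise as a set. With depc, HIST1H2BK (55.48 and 57.2 TPM against 64.61 and 59.38) and HIST1H2AC (1.113 and 1.115 against 2.6 and 1.708) were lower under 2-CM. HIST1H4C was higher, and HIST1H4H and HIST1H1C overlapped with DMSO. With poly I:C, HIST1H2BK and HIST1H2AC were higher, HIST1H1C was lower, and HIST1H4H and HIST1H4C overlapped. The part of poly(A) selection in the 2-CM differences of MT-TF and the rRNAs was not tested.

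Along the heavy-strand transcript the 2-CM difference went from 1.59 at MT-TF, 1.15 at MT-RNR1 and 0.70 at MT-RNR2 to 0.048 at MT-ND1, -0.65 at MT-ND2, -0.30 at MT-CO1, -0.38 at MT-CO2, -1.07 at MT-ATP8, -1.03 at MT-ATP6, -0.93 at MT-CO3, -1.09 at MT-ND3, -0.51 at MT-ND4 and -0.051 at MT-ND5, and was -0.88 at MT-CYB. The order is thus not a steady decline, with MT-ND5 higher than its neighbours. MT-TV (valine), between the rRNAs, averaged 0.080, from -0.32 with depc and 0.48 with poly I:C, and MT-TL1 (leucine), between MT-RNR2 and MT-ND1, averaged 0.049, from -0.38 and 0.48. Neither passed in either transfection, and both averages were below 0 under all 6 other scalings.

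**Figure D2:**
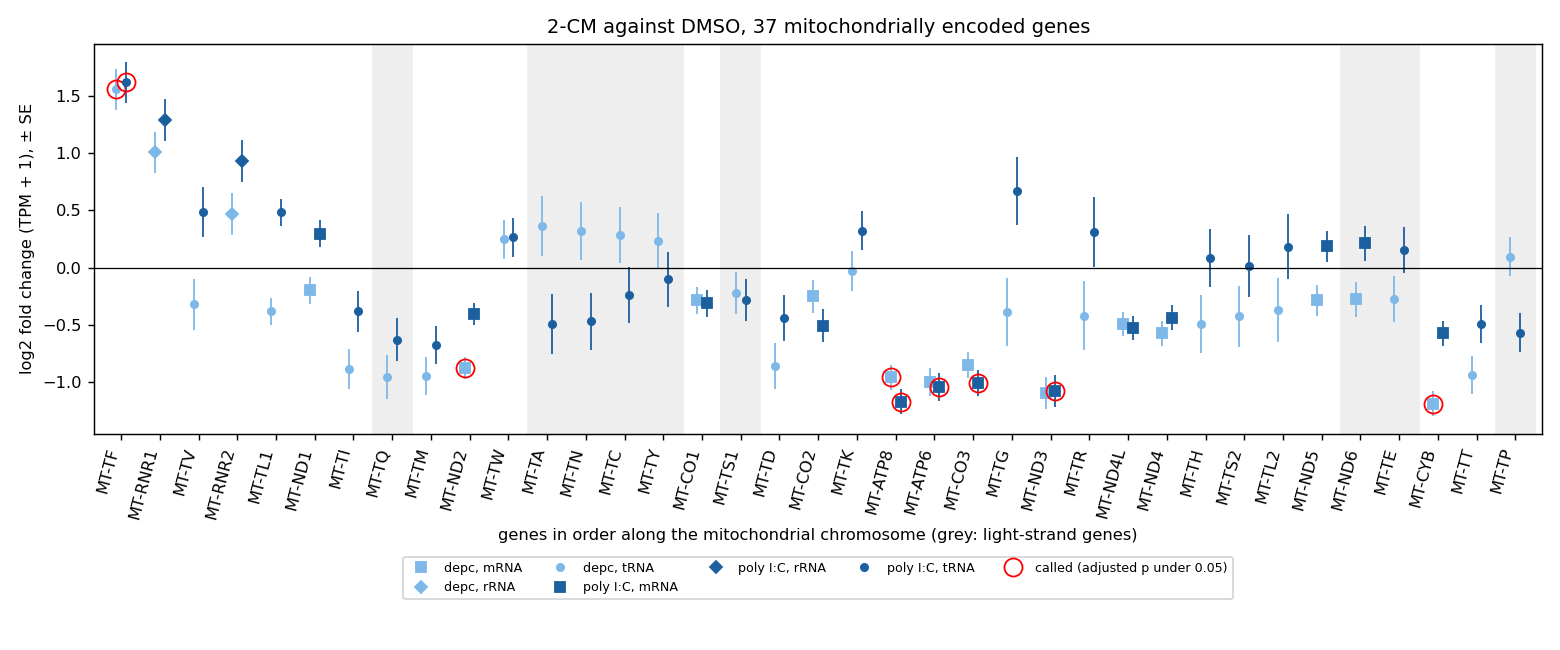
Log2 difference of 2-CM from DMSO (y axis, with standard errors) for the 37 genes in chromosome order (x axis), with depc in light blue and with poly I:C in dark blue. Squares are mRNAs, diamonds rRNAs and small dots tRNAs, grey bands are light-strand genes and red rings mark calls. MT-TF is above 1.5 in both transfections, while MT-ATP8, MT-ATP6, MT-CO3 and MT-ND3 lie between -1.18 and -0.86 in both.

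With TPM, 14 of the 22 tRNAs had a log2 difference below 0 under 2-CM, and apart from MT-TF none passed. MT-TM (methionine, -0.81, limma adjusted p = 0.0715), MT-TQ (glutamine, -0.79), MT-TT (threonine, -0.72), MT-TD (aspartate, -0.65) and MT-TI (isoleucine, -0.64) were the lowest, and each lay below DMSO in both transfections. MT-TI, MT-TQ and MT-TM lie in a row between MT-ND1 and MT-ND2. MT-TM read 154 and 160.2 TPM with DMSO and depc, 123 and 145 with DMSO and poly I:C, 74.3 and 88.0 with 2-CM and depc, and 75.7 and 91.0 with 2-CM and poly I:C. MT-TQ is a light-strand gene. The other light-strand tRNAs, MT-TA, MT-TN, MT-TC, MT-TY, MT-TS1, MT-TE (glutamate) and MT-TP, were between -0.25 and 0.066, with the values above 0 (MT-TC and MT-TY) below 0 under all 6 other scalings. These averages join opposite signs for MT-TA (0.36 with depc and -0.49 with poly I:C), MT-TN (0.32 and -0.47), MT-TC (0.29 and -0.24), MT-TY (0.24 and -0.10), MT-TE (-0.28 and 0.15) and MT-TP (0.096 and -0.57), none of which passed in either transfection. The heavy-strand tRNAs MT-TG (-0.39 with depc and 0.67 with poly I:C), MT-TR (-0.42 and 0.31), MT-TL2, MT-TH, MT-TS2 and MT-TK likewise lay below 0 with depc and above it with poly I:C in TPM, without passing, and those with poly I:C were below 0 under 4 to 6 of 6 other scalings. The ratio of light-strand to heavy-strand tRNA coverage was 1.39 times that under DMSO with depc and 0.651 times with poly I:C (exact permutation p = 0.778 over both, adjusted 0.889).

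With each transfection on its own, fewer members were called. With depc, 4 of the 6 genes called among all genes (0.0349%) were members: MT-TF was higher (0.00582% of all genes) and MT-CYB, MT-ND2 and MT-ATP8 were lower (0.0291%). With poly I:C, 5 of 18 (0.105%) were members: MT-TF was higher (0.064% of all genes) and MT-ATP8, MT-ATP6, MT-CO3 and MT-ND3 were lower (0.0407%). The calls within a transfection were not stable. With any 1 of the 12 libraries dropped, 0 or 1 of the 4 calls with depc was left, and 0 to 6 calls were made with poly I:C. A library outside the groups compared enters only through the pooled variance and the adjustment, so dropping it leaves the difference itself unchanged. With depc each of 6 other scalings called 0 members, and with poly I:C 5 of the 6 called 0 to 2. How many of all genes were called in these fits is not given here, so the lost calls are no result about the members. The difference between the transfections was tested and called no member, as given under the poly I:C results.

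The 2-CM differences depend on the scaling in size and in calls. The 6 other scalings were FPKM, upper-quartile, median-of-ratios, TPM over nuclear genes alone, TMM-scaled CPM of reads estimated from coverage, and a correction for GC content. The median of all genes was 0.25 with TPM and 0.01 after median-of-ratios scaling, and relative to either the 6 mRNAs stayed lower and MT-TF and MT-RNR1 higher. Over the 6, MT-ATP8 ranged from -1.45 to -1.20, MT-CYB from -1.27 to -1.02, MT-TF from 1.21 to 1.45 and MT-RNR1 from 0.77 to 1.02. Median-of-ratios scaling and TMM-scaled CPM each called 0 of the 37 genes in limma (15 in each at an unadjusted p under 0.05), and the GC correction called 1, MT-RNR1, where it called 1.54% of all genes. The shares of all genes under median-of-ratios scaling and TMM-scaled CPM are not given here, so those counts of 0 are no result about the members. Rescaling TPM to the sum of the 13 mRNAs, chosen after seeing the data, called 20 of 37 higher and 5 lower on a scale that by its making puts some mRNAs above 0 and others below, where 49.6% of all genes were called (49.5% higher and 0.0989% lower). The GC balance of the libraries was -0.95 and -1.52 with 2-CM and depc against 0.09 and -0.67 with DMSO and depc, and 1.45 and 1.11 with 2-CM and poly I:C against 0.97 and -0.47 with DMSO and poly I:C. Beyond the GC correction, its part in the 2-CM differences was not tested.

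As shares of the RNA, the 13 mRNAs made up 25.1% ± 0.821 of TPM (SD, n = 2) with DMSO and depc, 27.6% ± 2.996 with DMSO and poly I:C, 17.0% ± 0.217 with 2-CM and depc, 17.7% ± 0.658 with 2-CM and poly I:C, 23.8% ± 2.05 with RES and depc and 28.7% ± 1.51 with RES and poly I:C. The 4 libraries with 2-CM held 16.9% to 18.2%, below all 8 others. The share under 2-CM was 0.660 times that under DMSO within transfection. An exact permutation test of 4 against 4 libraries cannot go below p = 0.0556, which it reached here, and over 18 such tests the adjusted p was 0.111. No measure of the 18 passed the adjusted threshold.

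The ratio of rRNA to mRNA TPM was 0.0802 and 0.0727 with DMSO and depc, 0.0858 and 0.0531 with DMSO and poly I:C, 0.165 and 0.167 with 2-CM and depc, and 0.218 and 0.202 with 2-CM and poly I:C. It was 2.60-fold higher under 2-CM (exact permutation p = 0.0556, adjusted 0.111), 2.17-fold with depc and 3.10-fold with poly I:C. MT-ATP8 and MT-ATP6 together made up 18.8% and 18.7% of the mitochondrial mRNA with DMSO and depc but 14.4% and 13.5% with 2-CM and depc, and 15.5% and 15.6% with 2-CM and poly I:C against 21.6% and 21.3% with DMSO and poly I:C. That share was 0.734 times the DMSO share (exact permutation p = 0.0556, adjusted 0.111). The share of MT-ND6 was 1.48 times that under DMSO, with the same p. Complex IV mRNAs held 51.2% and 51.8% with DMSO and depc and 56.9% and 57.5% with 2-CM and depc, while with poly I:C 2-CM (51.3% and 52.0%) and DMSO (50.9% and 51.8%) overlapped.

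**Figure D3:**
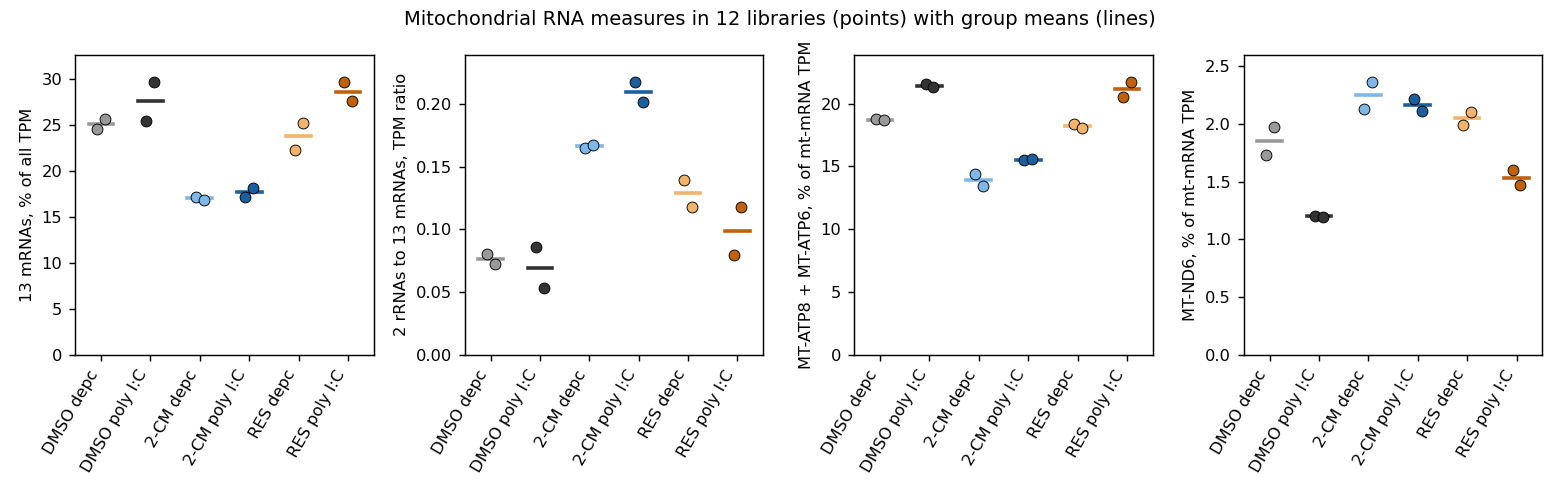
Share of all TPM on the 13 mRNAs, ratio of rRNA to mRNA TPM, and shares of MT-ATP8 with MT-ATP6 and of MT-ND6 in mitochondrial mRNA (y axes from 0), for the 6 groups (x axis). Points are libraries and lines group means. The 4 2-CM libraries have the lowest mRNA share, 16.9% to 18.2%, and the highest rRNA ratio, 0.165 to 0.218.

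Under RES limma called none of the 13 mRNAs, while 6 tRNAs were lower and 1 tRNA and 1 rRNA were higher. Averaged over transfections, 8 of the 37 genes were called in a comparison that called 7.91% of all genes: MT-TP and MT-RNR2 rose (6.62% of all genes were called higher, so the count of 2 in 37 is no result about the members), and MT-TI, MT-TQ, MT-TM, MT-TH (histidine), MT-TS2 (serine) and MT-TL2 (leucine) fell (1.29% were called lower). The 13 mRNAs ranged from -0.25 (MT-ND3) to 0.24 (MT-ND6, below 0 under 4 of 6 other scalings), and limma called none, with 1 at an unadjusted p under 0.05. The median of all genes was 0.21. The RES and 2-CM comparisons share the DMSO libraries.

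MT-TP, the tRNA for proline and the first gene of the light-strand transcript, read 929.7 and 1304 TPM with DMSO and depc and 1248 and 1409 with DMSO and poly I:C. Under RES it read 3050.3 and 3349.8 with depc and 3142 and 3036 with poly I:C. With 2-CM it read 1090 and 1271 with depc and 893 and 890 with poly I:C, so the 4 RES libraries stood above the 8 others. MT-TP rose by 1.38 (SE 0.121, limma adjusted p = 0.00223), or 2.60-fold. It was the only member called in either transfection alone, by 1.54 with depc (177 genes or 1.03% of all called, 0.838% higher, limma adjusted p = 0.0133) and by 1.22 with poly I:C (27 genes or 0.157%, 0.0698% higher, limma adjusted p = 0.0433). With poly I:C the call was lost without any 1 of the 12 libraries. With depc it was lost without either DMSO depc, either RES depc or either 2-CM poly I:C library, and upper-quartile, median-of-ratios, TMM and GC-corrected values called it in neither transfection, while FPKM and TPM over nuclear genes called it with depc but not with poly I:C. Over the 6 other scalings the averaged difference ran from 1.101 to 1.41.

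Of the other light-strand tRNAs, MT-TQ fell under RES and the 6 others did not pass. MT-TE was at 0.14, MT-TS1 at 0.06, MT-TY at 0.21, MT-TN at 0.23 and MT-TA at 0.15, each below 0 under 4 of 6 other scalings, and MT-TC was at 0.37 (limma adjusted p = 0.245). MT-TT, the heavy-strand neighbour of MT-TP, was at -0.17. The 8 light-strand tRNAs together held 2.06% and 2.54% of TPM with DMSO and depc and 2.498% and 3.43% with RES and depc, and 1.94% and 2.48% with DMSO and poly I:C and 3.06% and 2.24% with RES and poly I:C. The ratio of light-strand to heavy-strand tRNA coverage was 1.495 times that under DMSO, 1.79 times with depc and 1.25 times with poly I:C (exact permutation p = 0.111, adjusted 0.167).

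MT-RNR2 read 27095 and 26517 TPM with RES and depc and 20521 and 28764 with RES and poly I:C, against 15942 and 16835 and 13221 to 18355 with DMSO. It rose by 0.68 (SE 0.131, limma adjusted p = 0.0195). Under 2-CM, against the same DMSO libraries, MT-RNR2 differed by 0.70 without passing. That comparison called 0.0815% of all genes, beside 7.91% under RES. The higher level of MT-RNR2 is thus not particular to RES. The small rRNA MT-RNR1, at 4104 and 3271 TPM with RES and depc and 3048 and 3771 with RES and poly I:C, had a difference of 0.28 (limma adjusted p = 0.238), and its RES and DMSO libraries overlapped with poly I:C. The rRNA to mRNA ratio was 1.55 times that under DMSO (exact permutation p = 0.111, adjusted 0.167).

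The tRNAs that fell under RES lie in 2 runs of the chromosome. In the first, between MT-ND1 and MT-ND2, MT-TI fell by 0.70 (SE 0.125, limma adjusted p = 0.0152), MT-TQ by 0.77 (SE 0.136, limma adjusted p = 0.0148) and MT-TM by 0.52 (SE 0.118, limma adjusted p = 0.0343). MT-TI, MT-TQ and MT-TM were lower without overlap under 2-CM too, against the same DMSO libraries, so this run is not particular to RES. MT-TI read 174 and 209.8 TPM with DMSO and depc, 143 and 164 with DMSO and poly I:C, 103 and 109 with RES and depc, and 115 and 94.7 with RES and poly I:C. In the second run, between MT-ND4 and MT-ND5 (chrM:12138-12336), MT-TH fell by 0.78 (SE 0.1796, limma adjusted p = 0.0346), MT-TS2 by 0.83 (SE 0.191, limma adjusted p = 0.0344) and MT-TL2 by 0.79 (SE 0.201, limma adjusted p = 0.0481). MT-TS2 read 607 and 806 TPM with DMSO and depc, 333 and 401 with DMSO and poly I:C, 456 and 291 with RES and depc, and 242 and 201 with RES and poly I:C. MT-TR (arginine, -0.65) and MT-TG (glycine, -0.54) did not pass.

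Without overlap in either transfection, 7 tRNAs were lower under RES (those 6 and MT-TR), where 3.51% of all genes were, and MT-RNR2 and MT-TP were higher, where 17.2% were. The calls of the 6 tRNAs are near the threshold: the 8 calls became 1 without either DMSO depc library, 2 with DMSO poly I:C replicate 2 left out, and 4 with any of DMSO poly I:C replicate 1, either 2-CM poly I:C library, RES depc replicate 2 or either RES poly I:C library left out. Median-of-ratios scaling and TMM-scaled CPM called 0 in limma (9 in each at an unadjusted p under 0.05). The shares of all genes in these fits are not given here, so the lost calls are no result about the members. The mRNAs on either side of these runs had differences of 0.12 (MT-ND1), 0.017 (MT-ND2), 0.038 (MT-ND4) and 0.19 (MT-ND5), each below 0 under 4 or 5 of the 6 other scalings, and those of MT-ND1, MT-ND2 and MT-ND4 were below 0 with depc and above it with poly I:C in TPM. Among RNAs listed as lacking a poly(A) tail, 3 of 10 such genes tested were called under RES, all histone mRNAs and all lower: HIST1H2AC (-1.13), HIST1H1C (-1.48) and HIST1H2BK (-1.77). Whether these transcripts lacked a tail in these cells was not tested. RN7SK, an RNA polymerase III transcript, did not pass (1.79, limma adjusted p = 0.0713) and read 16.2 to 32.6 TPM in the 4 DMSO libraries and 296, 66.5, 65.9 and 21.0 in the RES libraries. The part of poly(A) selection in the tRNA differences was not tested.

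**Figure D4:**
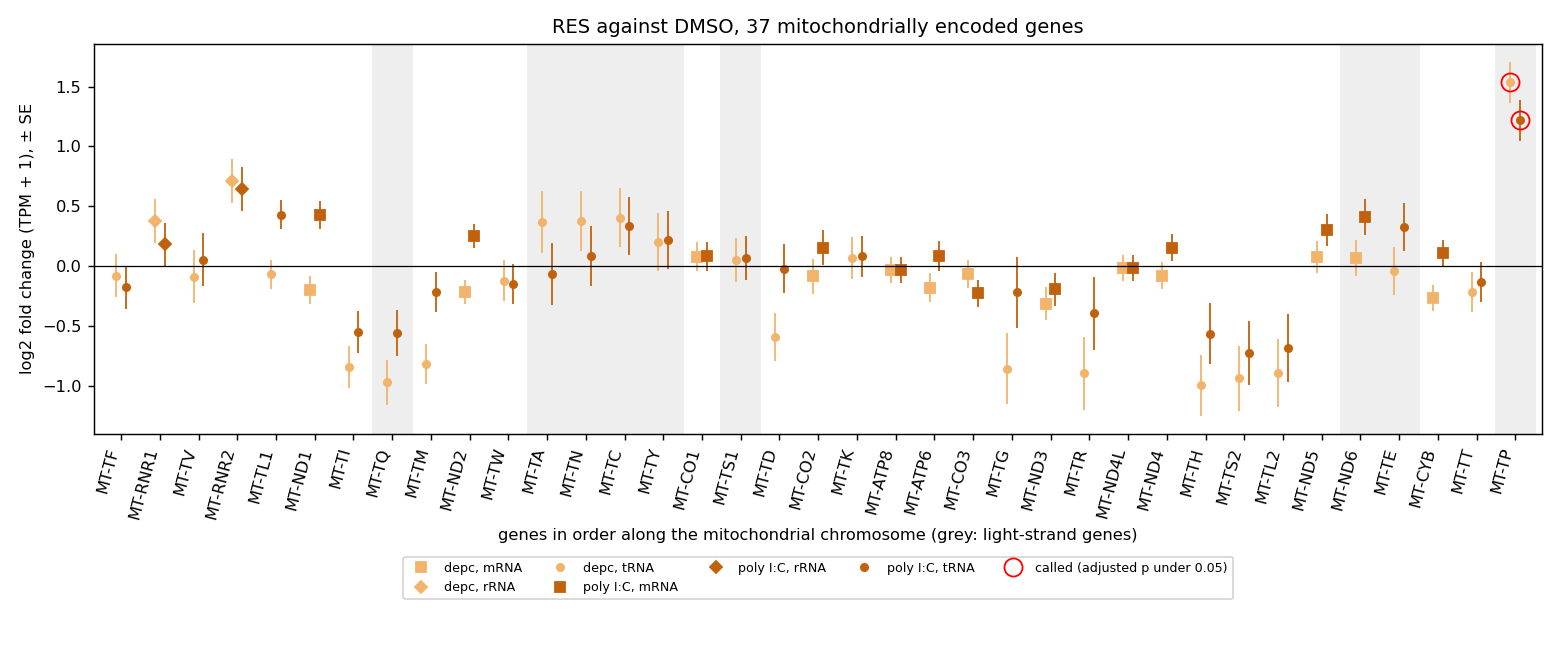
Log2 difference of RES from DMSO (y axis, with standard errors) for the 37 genes in chromosome order (x axis), with depc in light orange and with poly I:C in dark orange. Symbols, bands and rings are as for the 2-CM profile. MT-TP at the right end is above 1.2 in both transfections, and the mRNAs lie between -0.31 and 0.43.

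With poly I:C against depc, limma called no mitochondrial gene under DMSO or RES, and under 2-CM and averaged over compounds the genes called higher turned direction with the scaling while those called lower did not. Under DMSO limma called 0 of 37 (13 at an unadjusted p under 0.05) in a comparison that called 4.08% of all genes. Under RES it called 0 (8 unadjusted), against 0.442% of all genes. Under 2-CM it called 6 (4 higher and 2 lower), against 49.3% of all genes (37.5% higher and 11.8% lower). There FPKM called 0 higher and 2 lower and TPM over nuclear genes 4 higher and 0 lower. The shares of all genes under FPKM and nuclear-gene TPM are not given here, so these counts are no result about the members. For the scalings that follow, only the share of all genes called lower is given. Upper-quartile scaling called 0 higher and 16 lower (24.9% of all genes lower), median-of-ratios 0 and 7 (23.8%), TMM-scaled CPM 0 and 8 (24.8%) and the GC correction 0 and 19 (15.8%).

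Averaged over compounds limma called 14 (9 higher and 5 lower) with TPM, against 31.2% of all genes (13.4% higher and 17.8% lower). FPKM called 5 higher and 3 lower and TPM over nuclear genes 9 and 3, again without the shares of all genes beside them. Upper-quartile scaling called 0 higher and 25 lower (32.6% of all genes lower), median-of-ratios 0 and 4 (18.6%), TMM-scaled CPM 0 and 4 (19.4%) and the GC correction 0 and 9 (19.1%). The 9 calls higher are above the share of all genes with TPM, and 4 of 6 other scalings made no such call.

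Of the 6 genes called under 2-CM, the light-strand neighbours MT-TA and MT-TN fell. MT-TA read 3020.3 and 3614 TPM with depc and 1946 and 1877 with poly I:C, and fell by 0.79 (SE 0.261, limma adjusted p = 0.0378). MT-TN read 4611 and 5336 TPM with depc and 2956 and 2922 with poly I:C, and fell by 0.76 (SE 0.254, limma adjusted p = 0.0391). Both kept that direction under all 6 other scalings. With TPM 11.8% of all genes were called lower here, so the count of 2 in 37 is no result about the members. Their neighbours MT-TC (-0.56) and MT-TY (-0.43) did not pass. The other 4, MT-ND2 (0.59), MT-TK (0.55), MT-CYB (0.55) and MT-TL1 (0.47), were called higher with TPM but were below 0 under 4 of 6 other scalings, so their direction is set by the scaling. The median of all genes in this contrast was 0.61 with TPM and 0.02 after median-of-ratios scaling, and all 4 lie below the TPM median. All 6 calls were lost when any 1 of the 4 2-CM libraries was left out. How far the calls among all genes fell with them is not given here, so this loss is no result about the members.

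Averaged over the compounds, 9 members were called higher (MT-ND2 0.42, MT-ATP6 0.35, MT-ATP8 0.33, MT-TK 0.32, MT-CO3 0.31, MT-ND3 0.29, MT-CYB 0.26, MT-ND4L 0.21 and MT-ND4 0.20), each below 0 under 2 or 3 of 6 other scalings, beside a median of all genes of 0.16. The 5 called lower were MT-TS2 (-0.72), MT-TL2 (-0.64), MT-TH (-0.55), MT-TE (-0.41) and MT-ND5 (-0.27), all in the stretch from MT-TH to MT-TE (chrM:12138-14742) and all below 0 under all 6 other scalings. With TPM 17.8% of all genes were called lower here, so the count of 5 in 37 is no result about the members. MT-TS2 fell by 0.72 (SE 0.156, limma adjusted p = 0.0122) and MT-TL2 by 0.64 (SE 0.164, limma adjusted p = 0.0218). MT-TL2 read 537 and 711 TPM with DMSO and depc, 297 and 372 with DMSO and poly I:C, 389 and 584 with 2-CM and depc, 377 and 379 with 2-CM and poly I:C, 431 and 257 with RES and depc, and 217 and 195 with RES and poly I:C. MT-TS2 and MT-TL2 were the only members lower without overlap under every compound, where 12.6% of all genes were, and 7 members were higher (MT-ND2, MT-TK, MT-ATP8, MT-ATP6, MT-CO3, MT-ND3 and MT-ND4L), where 3.14% were. The count of 2 lower in 37 is likewise no result about the members. The 14 calls became 5 when DMSO depc replicate 2, 2-CM depc replicate 2 or 2-CM poly I:C replicate 2 was left out, 6 for 2-CM poly I:C replicate 1, 7 for RES poly I:C replicate 2, and 9 for the first replicate of either DMSO group. These are counts of members alone, without the share of all genes called in the same fits.

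**Figure D5:**
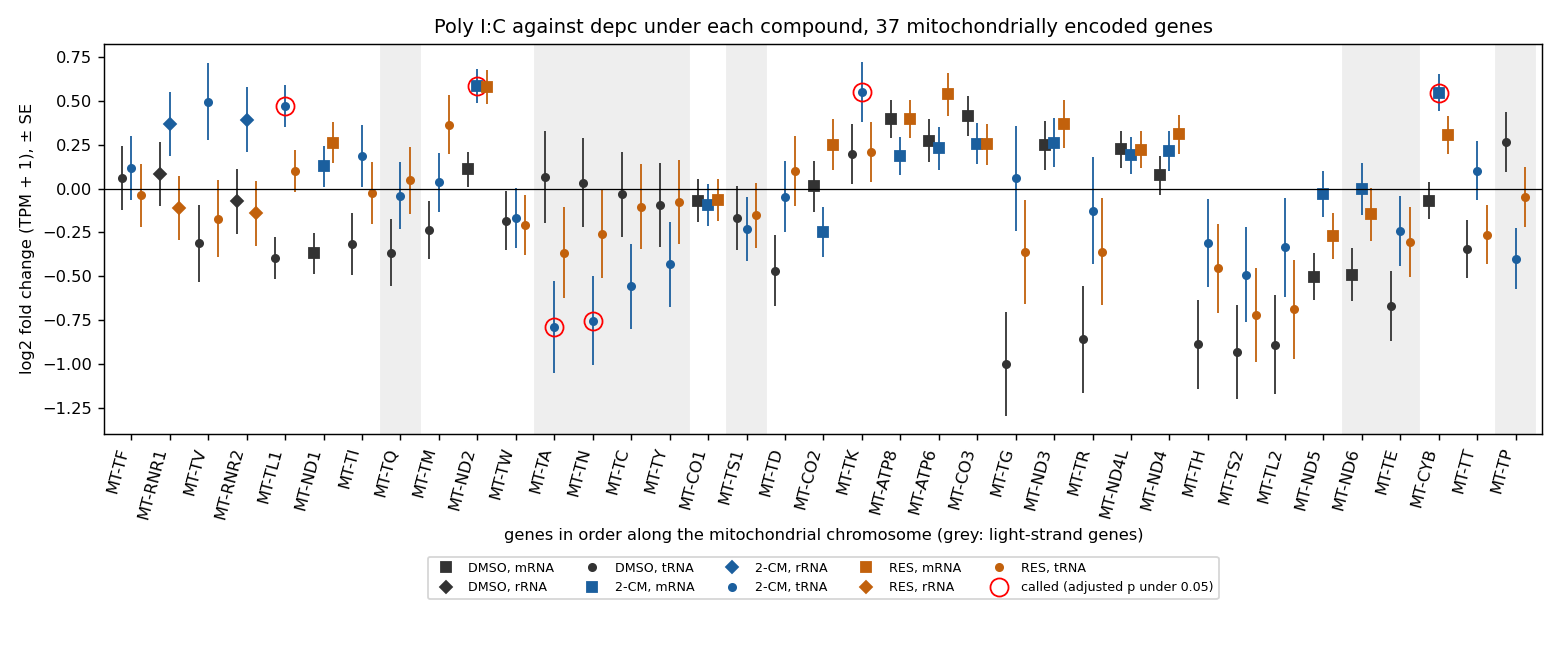
Log2 difference of poly I:C from depc (y axis, with standard errors) under DMSO (black), 2-CM (blue) and RES (orange) for the 37 genes in chromosome order (x axis). Symbols, bands and rings are as for the 2-CM profile. No gene is called under DMSO or RES, and under every compound MT-TS2 and MT-TL2 are below 0 and MT-ATP8, MT-ATP6 and MT-CO3 above it with TPM (these 3 are below 0 under 2-CM in 4 of 6 other scalings, and MT-CO3 under RES with upper-quartile scaling).

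As shares of mitochondrial mRNA, MT-ATP8 and MT-ATP6 held 18.8% and 18.7% with depc and 21.6% and 21.3% with poly I:C under DMSO. The share with poly I:C was 1.15 times that with depc under DMSO, 1.12 times under 2-CM and 1.16 times under RES (exact permutation p = 0.00926, the smallest 6 against 6 libraries in 3 strata can give, adjusted 0.111). MT-ND6, the light-strand mRNA, made up 1.73% and 1.97% with DMSO and depc and 1.20% and 1.19% with DMSO and poly I:C, and its share was 0.650 times that with depc under DMSO, 0.963 times under 2-CM and 0.749 times under RES (exact permutation p = 0.0185, adjusted 0.111). Neither passed after adjustment. The ratio of light-strand to heavy-strand tRNA coverage went from 3.998 and 4.35 to 5.43 and 6.48 under DMSO and from 5.96 and 5.67 to 3.72 and 4.01 under 2-CM, and from 5.86 and 9.46 to 8.78 and 6.29 under RES (exact permutation p = 0.843 over all 3, adjusted 0.889).

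Whether a compound altered the poly I:C response was tested as a difference of differences. For 2-CM limma called 0 of the 37 genes (10 at an unadjusted p under 0.05) and 2 of all genes (0.0116%), and for RES 0 (5 unadjusted) and 0 of all genes (0.0%). The largest such value of a member was 1.06 for MT-TG with 2-CM (SE 0.421, limma adjusted p = 0.161), from 0.059 under 2-CM against -0.9998 under DMSO, and it was below 0 after the GC correction. The lowest was -0.86 for MT-TA (SE 0.3697, limma adjusted p = 0.166). These comparisons share their DMSO libraries.

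The direction of the authors' deposited tables was read here from their interferon-response genes, and the libraries fitted are not given in the sources used here. In the authors' deposited tables for the transfection, 0 of the 37 genes passed an adjusted p of 0.05 under DMSO (1.25% of all genes did) and 0 under RES (0.363%). Under 2-CM, 29 of 37 were lower and 0 higher in the authors' deposited table, where 23.5% of all genes were lower. The values of the 37 genes in the authors' deposited table ran from -1.64 for MT-TA to -0.26 for MT-ND2. MT-ND2, MT-CYB, MT-TL1 and MT-TK, called higher with TPM, were among the 8 that did not pass in the authors' deposited table, at -0.26, -0.29, -0.37 and -0.29. Read in that direction, the authors' deposited table and TPM give opposite signs for these 4 genes, and the same sign for MT-TA and MT-TN.

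Nuclear copies of mitochondrial genes, near-identical stretches of mitochondrial DNA in the nuclear chromosomes, can share reads with the members, and 407 are annotated. MTATP6P1, a copy named for MT-ATP6, read 2891 to 3612 TPM in the 4 libraries with 2-CM and 6123 to 8107 in the 4 with DMSO, and fell under 2-CM by 1.11 (SE 0.0804, limma adjusted p = 0.00183). MTND2P28, named for MT-ND2, fell by 0.65 (limma adjusted p = 0.0347). All copies together held 1.04% of TPM with DMSO and depc and 0.595% with 2-CM and depc. How reads were split between members and copies was not tested.

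Of 34 nuclear genes for mitochondrial transcription and RNA decay, limma called 0 under 2-CM or RES against DMSO in any comparison (3 and 2 at an unadjusted p under 0.05, averaged over transfections). For 2-CM their median was -0.26 with depc (2 unadjusted, all genes -0.12) and 1.01 with poly I:C (11 unadjusted, all genes 0.59). With poly I:C against depc, 1 of 34 was called lower under DMSO (ELAC2, which cuts the 3′ end of tRNAs, -0.68), 20 were higher and 6 lower under 2-CM, 0 under RES (4 unadjusted), and 9 higher and 7 lower averaged over compounds, beside the same all-gene shares as above. POLRMT, the mitochondrial RNA polymerase, read 34.9 and 41.5 TPM with DMSO and depc, 15.2 and 22.5 with DMSO and poly I:C, 44.3 and 58.6 with 2-CM and depc, and 18.9 and 20.8 with 2-CM and poly I:C. POLRMT fell by 1.09 averaged over compounds (SE 0.174, limma adjusted p = 0.00411), and its difference of 2-CM from DMSO was 0.25 (limma adjusted p = 0.615). PNPT1, the exonuclease that degrades mitochondrial double-stranded RNA, rose by 2.13 with poly I:C averaged over compounds (SE 0.389, limma adjusted p = 0.00645) and its 2-CM difference was -0.78 with depc and 1.65 with poly I:C (limma adjusted p = 0.721 and 0.134). TFAM, which packages and activates mitochondrial DNA, rose by 1.13 with poly I:C averaged over compounds (limma adjusted p = 0.0413). Its TPM went from 5.40 and 3.05 with depc to 39.5 and 32.1 with poly I:C under 2-CM. Its replicates overlapped under DMSO (11.3 and 6.31 against 15.6 and 5.11) and under RES (13.6 and 5.94 against 7.79 and 20.95). The helicase SUPV3L1 (0.82, limma adjusted p = 0.0565) and LRPPRC, which binds and stabilises mitochondrial mRNA (0.63, limma adjusted p = 0.246), did not pass.

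Nuclear-encoded subunits of the respiratory complexes were taken as a further list. Of 75 tested, limma called 0 under 2-CM against DMSO averaged over transfections, where 0.0815% of all genes were called (0 at an unadjusted p under 0.05, 2 with depc and 10 with poly I:C; median 0.011, beside -0.51 for the 13 mitochondrial mRNAs and 0.25 for all genes) and 1 lower under RES (NDUFB10 of complex I, -0.59), where 7.91% were called. With poly I:C, 4 were higher and 1 lower under DMSO, where 4.08% of all genes were called, among them ATP5MG of ATP synthase (1.02) and SDHC (0.97) and SDHA (-0.71) of complex II. Under 2-CM 23 were higher and 18 lower, beside 49.3% of all genes, and under RES limma called 0 (4 unadjusted), beside 0.442%. Averaged over compounds 27 were higher and 15 lower, beside 31.2%, with NDUFB5 (2.14) and SDHD (1.59) the highest called and UQCRC1 (-0.87) and NDUFV1 (-0.85) the lowest. The calls of this list and the one before come from TPM alone. NDUFB5 differed between replicates, at 134 and 26.5 TPM with DMSO and poly I:C and 49.1 and 121 with RES and poly I:C. The GC balance of these libraries was 0.97 and -0.47, and -0.28 and 1.16. The part of scaling and GC balance in these calls was not tested.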

How the data were processed

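RNA of 12 libraries was analysed, 2 in each of 6 groups (DMSO, 2-CM or RES, each with depc or poly I:C). The deposited transcript files give coverage, FPKM and TPM per transcript, made with StringTie 2.0.4 on GENCODE 32 models per the file headers, and were summed here per gene. No strand option stands in the headers. Per the submitters' processing notes, bcl2fastq 2.20, HISAT2 2.1.0, DESeq2 and hg38 were used, with roles not stated. The authors' deposited comparison tables of poly I:C against depc hold a mean normalised signal, log2 fold changes, a test score, and p-values, in one table per compound. Coverage times length divided by the read length estimated reads and depth (31.2 to 49.4 M per library). The deposited values are not counts, so no count model was run.

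Genes with at least 1 TPM in at least 2 libraries were kept (17185). limma 3.58.1 in R 4.3.3 was fitted to log2(TPM + 1) over the 6 groups, with 12 contrasts, 6 residual degrees of freedom (median prior 2.74) and Benjamini-Hochberg adjustment over all genes tested at 0.05. All fold changes are on that log2(TPM + 1) scale, which understates changes of low genes. The 18 tests of summed measures were exact 2-sided permutation tests within strata, in Python 3.11.15 with numpy 2.4.6 and pandas 2.3.3. The procedure was tested on simulated data. 0 columns of other series were used.

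All 37 genes were described, POLRMT, TFAM, LRPPRC, PNPT1 and SUPV3L1 always, and from other lists at most 2 called genes per direction. The exceptions were the 3 histone mRNAs called lower under RES and some genes given without a call. The latter were RN7SK, RMRP, the listed histone mRNAs under 2-CM and the cell type markers. The members and lists were chosen with earlier results of these data known. Alternatives covered scaling, filter, pseudocount, GC content, the replicate block, the groups fitted and each library left out. Rescaling to the mitochondrial mRNAs was added after seeing the data. Coordinates of the 37 genes were the same in GENCODE 44, and sequences came from the hg38 reference.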

Additional observations from a re-analysis of the deposited data

How the results depend on the processing

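Counts in this section are of the 37 genes alone. The share of all genes called moved with the setting too. For 2-CM averaged over transfections it was 0.0815% as reported, 1.54% with the GC correction and 49.6% with the mRNA rescaling. The counts by themselves are thus no result about the members. Counts of the 37 genes called, against those reported, moved as follows. Poly I:C under DMSO (0) gave 7 with the mRNA rescaling. Under 2-CM (6), FPKM gave 2, upper-quartile scaling 16, no filter 1, the GC correction 19, the mRNA rescaling 11, the replicate block with GC correction 23 and the fit of only the groups compared 12. Under RES (0), the TPM minimum of 5 and the pseudocount of 0.1 each gave 1 and the mRNA rescaling 5. Averaged (14), FPKM gave 8, upper-quartile 25, median-of-ratios and TMM each 4, no filter 6, GC 9 and the mRNA rescaling 23. 2-CM with depc (4) gave 0 with FPKM, upper-quartile, median-of-ratios, nuclear-gene and TMM scaling, GC, and the groups-only fit, 7 with the pseudocount of 0.1 and 19 with the mRNA rescaling, and 6 without a filter. 2-CM with poly I:C (5) gave 1 with FPKM and upper-quartile, 0 with median-of-ratios, TMM and the groups-only fit, 2 with GC and 23 with the mRNA rescaling. 2-CM averaged (8) gave 0 with median-of-ratios and TMM, 1 with GC and 25 with the mRNA rescaling. RES with depc (1) gave 0 with upper-quartile, median-of-ratios, TMM, GC and the groups-only fit, and 4 with the mRNA rescaling. RES with poly I:C (1) gave 0 with FPKM, upper-quartile, median-of-ratios, nuclear-gene and TMM scaling, no filter, GC and the groups-only fit. RES averaged (8) gave 2 with upper-quartile and GC, 0 with median-of-ratios and TMM, 5 without a filter and 1 with the groups-only fit. The causes were not tested.

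The labels do not say that a replicate number marks a shared culture or day. The deviations of same-numbered libraries correlated at 0.15 to 0.76 over the 10 pairs among 5 groups and at -0.80 to -0.31 over the 5 pairs with RES poly I:C, so the numbers were not used to pair samples. With the replicate block the calls were 0 for 2-CM with depc, 2 for 2-CM with poly I:C, 8 averaged, 1 for RES with depc, 0 for RES with poly I:C, 6 averaged, and for poly I:C 0 under DMSO, 6 under 2-CM, 0 under RES and 13 averaged. The replicate block with GC correction gave 0 for 2-CM with depc, 1 for 2-CM averaged, 0 for RES with poly I:C and 2 for RES averaged.

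Among the members called, directions reversed only for genes called higher with poly I:C. Members not called changed sign in other comparisons too, as given with the results. Under 2-CM, with upper-quartile, median-of-ratios, TMM and GC in that order, MT-CYB was -0.29, -0.31, -0.26 and -0.46, MT-ND2 -0.26, -0.27, -0.22 and -0.91, MT-TL1 -0.37, -0.38, -0.33 and -1.43, and MT-TK -0.28, -0.29, -0.18 and -1.73. Averaged, with upper-quartile and then GC, MT-CYB was -0.20 and -0.11, MT-ND2 -0.033 and -0.18, MT-ND3 -0.17 and -0.43, MT-ND4 -0.26 and -0.32 (median-of-ratios -0.0045), MT-ATP6 -0.11 and -0.18, MT-CO3 -0.15 and -0.043, MT-TK -0.13 and -0.63, MT-ND4L -0.24 and -0.38, and MT-ATP8 -0.13 and -0.41. The block with GC correction gave the GC values in each case.

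Without 1 library in turn, calls ranged from 0 to 7 for poly I:C under 2-CM, 5 to 16 averaged, 0 to 1 for 2-CM with depc, 0 to 6 with poly I:C and 6 to 8 averaged, 0 to 1 for RES with depc, 0 to 0 with poly I:C and 1 to 8 averaged. The 8 members called for 2-CM averaged and the 8 for RES averaged kept their direction in 104 of 104 values under other settings and 96 of 96 with a library left out. Part of these values could not change. The filters, the replicate block and the groups-only fit leave the log2 difference as it was, and so does dropping a library of a group not compared. The tally by itself is thus no measure of how firm the directions are. The groups-only fit could not be run for the poly I:C average, and the other denominator gave no value for the tRNA ratio.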

Other observations

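Rescaling TPM to the sum of the 13 mitochondrial mRNAs, an alternative chosen after seeing the data, describes their balance with each other. By its making some mRNAs lie above 0 on this scale and others below, so the values are a description only. Under 2-CM averaged over transfections, the mRNAs above 0.2 were MT-ND1 (0.65), MT-ND6 (0.57), MT-ND5 (0.55), MT-CO1 (0.30) and MT-CO2 (0.22), and those below -0.2 MT-ND3 (-0.49), MT-ATP8 (-0.47), MT-ATP6 (-0.43), MT-CO3 (-0.33) and MT-CYB (-0.29). Of the 37 genes 20 were called higher, both rRNAs among them, where 49.5% of all genes were.

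The RES depc replicates stood apart in the ratio of light-strand to heavy-strand tRNA coverage, at 5.86 and 9.46, where the DMSO depc pair read 3.998 and 4.35. The 5 tRNAs from MT-TG to MT-TL2, all heavy-strand genes between MT-CO3 and MT-ND5, together held 0.228% and 0.292% of TPM with DMSO and depc and 0.174% and 0.107% with RES and depc. With DMSO and poly I:C they held 0.125% and 0.150%, within the range of RES and depc, and with RES and poly I:C 0.103% and 0.0848%.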
